A study of Mus musculus with 24 samples.

Results

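The Dlk1-Dio3 cluster is an imprinted region of mouse chromosome 12 that was followed here through its 6 long annotated genes, Dlk1, Meg3, Rtl1, Rian, Mirg and Dio3. They were taken by name from the GENCODE M1 annotation of the mm9 genome, and are 6 of the 26225 coding and noncoding genes counted. From the start of Dlk1 to the end of Dio3 the cluster spans 828 kb, chr12:110691033-111519307. The data are ribosome-depleted, random-primed RNA-Seq tags of total RNA from 2 sources. The first, CCE, is a single feeder-independent embryonic stem cell line of strain 129/SvEv that was differentiated for 5 days by LIF withdrawal and 0.266 µM retinoic acid. The second, FH, is fetal head of FVB/N mice at 14.5 days postcoitum, a mixture of brain, muscle, skeleton and other tissues. No mutation or transgene is stated for either. Both differ in strain as well as in cell type, and these factors cannot be told apart here.

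Imprinted genes are expressed mainly from the copy inherited from 1 parent. In this cluster the protein-coding genes Dlk1, Rtl1 and Dio3 are known to be expressed from the paternal copy, and the long noncoding RNAs Meg3, Rian and Mirg from the maternal copy. The noncoding RNAs are hosts of small RNAs: Rian holds many C/D box snoRNAs, Mirg and the region before it hold a large cluster of miRNAs, and a maternal RNA antisense to Rtl1 holds miRNAs that are fully complementary to the Rtl1 mRNA. The tags carry no allele or strand information, so the parental copy and the strand were not measured. Of the tags in the bodies of the 6 genes, exons and introns together, between 45.2% and 53.5% mapped to the plus strand, also in Rtl1, which is annotated on the minus strand.

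The small RNAs place the 6 long genes along a miRNA host region. In the interval 114 mature miRNAs of 61 genes matched mm9 exactly (RefSeq sequences, table of GRCm38.p6), 106 of them on the plus strand, the strand of Meg3, Rian and Mirg. Of all 114, 3 lay in Meg3, 16 between Meg3 and Rtl1, 13 in Rtl1, 6 in Rian, 55 between Rian and Mirg, 19 in Mirg and 2 between Mirg and Dio3. The 6 sequences shown first lie inside an exon of Rtl1 on the opposite strand, between chr12:110828669 and chr12:110833562 in mm9, which is why tags in the Rtl1 exon cannot be given to Rtl1 alone. They are written 5′ to 3′ with the seed, bases 2 to 8, in capitals.
miR-431-5p: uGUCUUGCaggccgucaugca
miR-433-3p: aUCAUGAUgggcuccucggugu
miR-127-3p: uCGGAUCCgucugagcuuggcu
miR-434-3p: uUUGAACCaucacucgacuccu
miR-432: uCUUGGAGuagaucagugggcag
miR-136-5p: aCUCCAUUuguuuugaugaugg

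The 6 have 6 different seeds. Among all 114 miRNAs there were 113 different sequences and 104 seeds. Of these seeds 10 were shared by miRNAs of different genes, and 1 of the 10 is a single sequence, miR-3070-5p, that is encoded by both Mir3070a and Mir3070b. The next 6 show 3 of these pairs, chosen because they join Mir379, the start of the dense row of miRNA genes before Mirg, and Mir410, a gene inside Mirg, to others of the row. miR-379-5p lies at chr12:110947275-110947295, and miR-410-5p lies in Mirg at chr12:110981939-110981959.
miR-379-5p: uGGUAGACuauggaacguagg
miR-1193-5p: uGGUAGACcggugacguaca
miR-379-3p: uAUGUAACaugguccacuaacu
miR-411-3p: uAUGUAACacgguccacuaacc
miR-494-5p: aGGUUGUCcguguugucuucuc
miR-410-5p: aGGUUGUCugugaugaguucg

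Mature miRNAs are shorter than the sequenced fragments, so none of the values below measures them. A tag at a miRNA gene is a fragment of a long RNA that runs through it.

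There were 14 RiboMinus libraries, made from 7 cDNA preparations that were each sequenced at Vienna-IMP and at Nijmegen, and 2 Ribo-Zero libraries, 1 for each tissue, made from other RNA. RiboMinus and Ribo-Zero are kits that remove ribosomal RNA. The RiboMinus preparations were CCE1 and CCE2, each as sheared cDNA and as hydrolysed RNA, FH1 in both forms and FH2 as hydrolysed RNA only, and FH2 had a second round of depletion. Sheared and hydrolysed preparations of the same number came from 1 depleted RNA sample, so the 4 CCE and 3 FH preparations stand for 2 depleted RNA samples in each tissue and are not independent of each other, and p-values that treat them as independent may be too small. Libraries held 920424 to 2473448 uniquely mapped tags with RiboMinus and 28708715 and 48426051 with Ribo-Zero. Levels are RPKM, tags per kilobase of merged exon scaled to the unique tags of the library. Between 64.7% and 71.6% of CCE RiboMinus tags and between 44.6% and 60.8% of FH tags lay in exons, so a scale based on all tags and one based on exon tags differ. The cDNA of FH1 hydrolysed gave 58.0% at Vienna-IMP and 44.6% at Nijmegen, and that of FH2 hydrolysed 52.3% and 55.5%. The numbers of the hydrolysed preparations may therefore be crossed at 1 location, which was not settled, and values of single hydrolysed preparations and the pairing by number rest on the numbers as given. The paper takes 1 fetal head lane, by lane order the Vienna-IMP library of FH1 hydrolysed, for a likely technical outlier because of its tag composition. That library is kept in the values below unless its removal is stated. Of the markers, Pou5f1 of pluripotent cells was 18.0 ± 2.51 RPKM in CCE (SD, n = 4) and 0 in FH, and primitive endoderm markers, summed, lay between 459 and 630 RPKM in CCE and between 125 and 145 in FH. Neuronal markers summed to 36.8 to 46.2 RPKM in CCE and 384 to 655 in FH.

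In the RiboMinus preparations Dlk1 had the highest mean exon level of the 6 genes in both tissues, and Dio3 the lowest. Dlk1 encodes a membrane protein related to Notch ligands, and Dio3 encodes the deiodinase that inactivates thyroid hormone. In CCE the order of the means was Dlk1, Rian, Mirg, Rtl1, Meg3 and Dio3. Only the first and the last step of this order had no overlap between preparations. Rian lay above Mirg in 4 of 4 preparations, although their ranges overlapped, and Mirg and Rtl1, and Rtl1 and Meg3, each changed places between preparations. In FH the order was Dlk1, Rian, Meg3, Rtl1, Mirg and Dio3. There Rian and Meg3 were not separated, and Mirg was above Dio3 in 2 of 3 preparations, while the other neighbours did not overlap. The Ribo-Zero libraries gave another order at the top, with Rian at 27.1 RPKM above Dlk1 at 23.5 in CCE, and Rian at 25.4 and Meg3 at 16.1 above Dlk1 at 13.2 in FH, while Dio3 was the lowest there too.

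**Figure D1:**
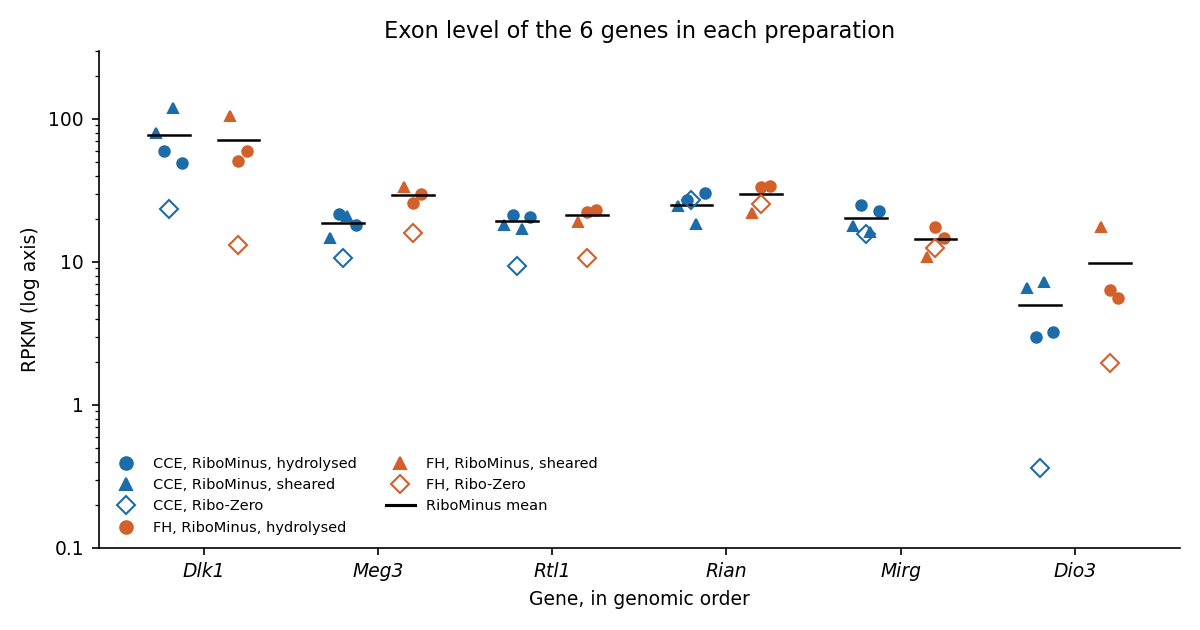
Exon level in RPKM (log axis) of the 6 genes in genomic order, with a point for each RiboMinus preparation (circles hydrolysed, triangles sheared), open diamonds for the Ribo-Zero library of each tissue and a bar at the RiboMinus mean. Meg3 is the gene whose 3 FH preparations, from 25.8 RPKM, all lie above the 4 CCE preparations, of up to 21.6 RPKM, and for Dlk1 and Dio3 the triangles lie above the circles in each tissue.

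The first comparison asked which of these genes differ between the stem cell derived cells and the fetal head. Meg3 was higher in FH, and it was the only one of the 6 genes that passed the test. The preparations of the other 5 genes overlapped between the tissues. Mirg, with a lower mean in FH, and Dio3, with a higher one, passed in fits that blocked preparations by number and form or took their fragmentation into account. Mirg also passed when repeated positions were counted once (-0.60, limma adjusted p = 0.0271). Over all 15596 features tested (15585 genes and 11 segments of the cluster), 50.2% differed between FH and CCE at an adjusted p under 0.05 (limma), 23.4% higher and 26.8% lower in FH, so that 1 of 6 lies below the share of all features. The median over all features was -0.14 on the log2(RPKM + 1) scale.

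Meg3, a long noncoding RNA of the maternal copy, had 14.7, 21.6, 20.8 and 18.1 RPKM in the CCE1 sheared, CCE1 hydrolysed, CCE2 sheared and CCE2 hydrolysed preparations. In FH1 sheared, FH1 hydrolysed and FH2 hydrolysed it had 33.3, 25.8 and 29.7 RPKM. The groups did not overlap, which was also so for 52.4% of all features, 24.2% with FH higher and 28.2% with FH lower. The means were 18.8 ± 3.13 (SD, n = 4) and 29.6 ± 3.78 (SD, n = 3), a difference of 0.64 on the log2(RPKM + 1) scale (SE 0.19, limma adjusted p = 0.0217). The exact two-sided permutation test over preparations gave p = 0.0571, the smallest that 4 against 3 allows. The call was lost when repeated positions were counted once (0.48, limma adjusted p = 0.0715), with the Nijmegen libraries alone (0.77, p = 0.0754), and without CCE2 hydrolysed, FH1 sheared or FH2 hydrolysed (adjusted p = 0.0515, 0.0584 and 0.0685). The call was also lost without the Vienna-IMP library of FH1 hydrolysed, the likely outlier by the paper's account (0.59, limma adjusted p = 0.0551). When scaled to exon tags the difference was 0.98 (limma adjusted p = 0.00263).

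Rian, the host of snoRNAs, had 24.8, 26.9, 18.4 and 30.1 RPKM in the CCE preparations in the same order. In FH it had 22.2, 33.5 and 34.04 RPKM. The ranges overlapped, with the sheared FH preparation below 3 of the 4 CCE preparations, and the difference was 0.24 (SE 0.23, limma adjusted p = 0.412). It lay between 0.079 and 0.58 over the alternatives and passed in none. Mirg, which holds miRNAs, had 17.7, 25.2, 16.3 and 22.5 RPKM in CCE and 10.8, 17.6 and 14.7 in FH. The highest FH preparation lay above CCE2 sheared and the other FH preparations below every CCE preparation, and the difference was -0.48 (SE 0.22, limma adjusted p = 0.104). It was smaller with median-of-ratios scaling (-0.26, limma adjusted p = 0.315), when scaled to exon tags (-0.16, limma adjusted p = 0.626) and without FH1 sheared (-0.31, limma adjusted p = 0.289).

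Among the coding genes, Dlk1 had 79.4, 59.2, 120.2 and 49.1 RPKM in CCE and 105, 50.6 and 59.7 RPKM in FH. The spread between preparations was far wider than the difference of the means, 77.0 ± 31.4 (SD, n = 4) and 71.8 ± 29.2 (SD, n = 3), and the fitted difference was -0.09 (SE 0.35, limma adjusted p = 0.854). Its sign is not stable, being 0.14 with median-of-ratios scaling and 0.25 when scaled to exon tags. Rtl1, a placental and muscle protein derived from a retrotransposon, had 18.2, 21.4, 16.9 and 20.7 RPKM in CCE and 18.9, 22.4 and 23.0 RPKM in FH. It was the most even gene of the cluster over preparations, with means of 19.3 ± 2.11 and 21.4 ± 2.20 and a difference of 0.15 (SE 0.17, limma adjusted p = 0.506). Over the alternatives this lay between -0.073 and 0.48 and passed in none. Dio3 had 6.60, 2.96, 7.28 and 3.22 RPKM in CCE and 17.5, 6.37 and 5.58 in FH, from 22 to 67 tags each. Its sheared preparations were the highest of each tissue, and within the hydrolysed preparations both FH values exceeded both CCE values. Over all preparations the difference was 0.76 (SE 0.41, limma adjusted p = 0.157), and without FH1 sheared it was 0.29 (limma adjusted p = 0.525).

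Preparations with the same number and form deviated together from their tissue means. All such pairs share the fragmentation, so this does not show a pairing by number. No link between CCE and FH samples of the same number is stated. With that pairing as a block 3 of the 6 genes passed, while 10053 of 15585 genes did so in place of 7822. In the blocked fit Dio3 was higher in FH by 0.94 (limma adjusted p = 0.00211), Mirg was lower (-0.58, limma adjusted p = 0.0051) and Meg3 higher (0.69, limma adjusted p = 0.0116). With the numbers of the hydrolysed preparations crossed at Nijmegen, the blocked fit kept Meg3 (0.76, limma adjusted p = 0.0225) and Mirg (-0.59, limma adjusted p = 0.022), but the call of Dio3 was lost (0.84, limma adjusted p = 0.061). The sheared CCE2 preparation has no FH partner and does not inform that fit. With fragmentation as a covariate in its place, the differences were 0.95 for Dio3 and -0.57 for Mirg (limma adjusted p = 0.000299 and 0.00192), and in the hydrolysed preparations alone they were 0.77 and -0.54 (0.00294 and 0.00675). In bulk tissue, fewer cells of a type and less RNA per cell cannot be told apart.

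The Ribo-Zero libraries, from other RNA and at greater depth, gave 1 value for each tissue and no test. The ratio of FH to CCE was 1.496 for Meg3 (95% interval 1.45 to 1.54, counting error only), 5.48 for Dio3 (3.48 to 9.05, from 194 and 21 tags) and 0.801 for Mirg (0.747 to 0.858). For these genes, which the blocked RiboMinus fit called, the directions on the scale of unique tags are those of that fit. For Rtl1 the ratio was 1.13 (1.07 to 1.202), for Rian 0.935 (0.906 to 0.965) and for Dlk1 0.561 (0.536 to 0.588). On this scale Rian and Dlk1 thus go against the blocked fit, where both were higher in FH, though neither passed. With Ribo-Zero 61.8% of CCE tags and 44.0% of FH tags lay in exons. Scaled to exon tags each ratio would be higher, which was not computed. The directions of Mirg and Rian may therefore depend on the scale. Levels of single genes differed between the Ribo-Zero and the RiboMinus libraries. These differ in kit, RNA, sequencing site, tag length and time of hydrolysis, which cannot be told apart. By the paper's account mitochondrial tags were removed from the RiboMinus samples only, so the unique tags used for scaling are also unlike. Against the hydrolysed RiboMinus preparations of the same tissue, Ribo-Zero gave 0.957 of the Rian level in CCE and 0.751 in FH, but 0.431 and 0.238 of the Dlk1 level and 0.117 and 0.332 of the Dio3 level. Meg3 was at 0.537 and 0.576 and Mirg at 0.651 and 0.780.

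Meg3 is annotated as 8 merged exons, and the last of them covers 13087 of its 18089 exon bases. This exon, chr12:110796850-110809936, differed more between the tissues than the exons before it, and was examined because the windows along the cluster differed there. It had 2.94, 4.56, 4.46 and 4.63 RPKM in the CCE preparations and 9.14, 10.9 and 10.6 in FH. Every FH value lay above every CCE value, with means of 4.15 ± 0.807 and 10.2 ± 0.958, a ratio of 2.47. As the exon was chosen for this difference, its values are a description and carry no test. Exons 1 to 7 as a whole had 57.1 ± 9.62 and 80.3 ± 16.0 RPKM, a ratio of 1.41. Exon 7, of 84 bases, had 235, 250.5, 259.7 and 134 RPKM in the CCE preparations and 637, 259.7 and 452 in FH, so that the highest CCE and the lowest FH value are alike.

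The share of Meg3 exon tags that lay in exon 8 was 14.5%, 15.3%, 15.5% and 18.5% in the CCE preparations, and 19.9%, 30.7% and 25.9% in FH. The lowest FH share lay just above the highest CCE share. In the Ribo-Zero libraries it was 22.5% in CCE and 57.3% in FH. There, scaled to unique tags, exon 8 was 3.81 times higher in FH (3.59 to 4.05). Exons 1 to 7 were at 0.823 of the CCE level (0.792 to 0.856) on that scale. The whole-gene value for Meg3 thus joins parts with different ratios. Both ratios would be higher when scaled to exon tags, which was not computed. The annotation also places a noncoding gene on the opposite strand, Gm17639, inside exon 8, and tags in that overlap cannot be told apart by strand. In the 9988 bases of exon 8 before Gm17639 the level was 2.25 ± 0.920 in CCE and 6.69 ± 1.03 in FH, a ratio of 2.97, and with Ribo-Zero 5.06 (4.70 to 5.45). This stretch holds Mir770, and around miR-770-5p (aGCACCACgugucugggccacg, chr12:110801920-110801941) the kilobase had 32 tags in CCE and 65 in FH with RiboMinus, and 119 and 1137 with Ribo-Zero.

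**Figure D2:**
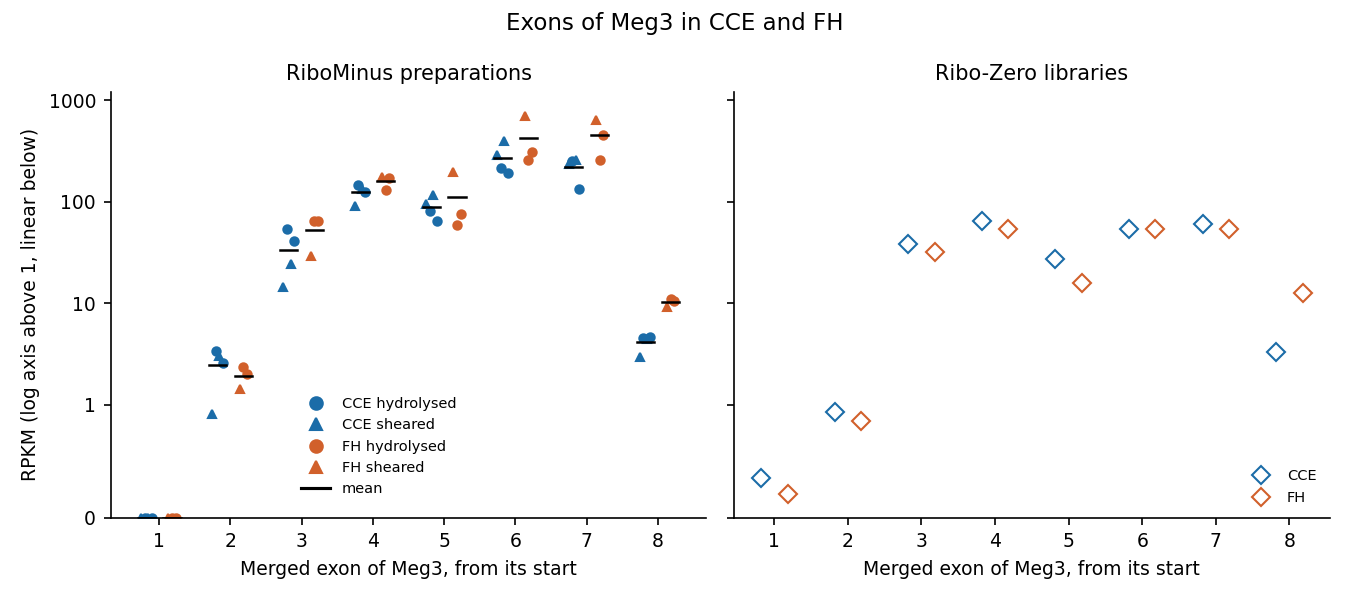
Level of each of the 8 merged exons of Meg3 in RPKM (log axis above 1, linear below), in the 7 RiboMinus preparations (left, bars at the means) and the 2 Ribo-Zero libraries (right). Exon 8 lies at 4.15 RPKM in CCE and 10.2 in FH with RiboMinus and at 3.34 and 12.7 with Ribo-Zero, while exons 3 to 7 are the most abundant part in both tissues and exon 1, where 34.3% of positions can be reached by a unique 36-base tag, has no RiboMinus tag.

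Single exons were also compared, as a description. Of the exons with at least 20 RiboMinus tags, the tissues did not overlap in 1 of 6 exons of Dlk1, 2 of 7 of Meg3 (exon 8, and exon 7, where the values meet), 0 of 20 of Rian, 0 of 7 of Mirg and in neither the single tested exon of Rtl1 nor that of Dio3. Among all features 52.4% did not overlap, a share that was not computed for exons alone. The Dlk1 exon was the first, of 472 bases, with 4.23 ± 1.70 RPKM in CCE and 16.1 ± 7.71 in FH from 25 and 66 tags. It was named because it was the 1 of 6 without overlap, so no test is given. With Ribo-Zero the ratio was 2.34 (1.38 to 4.17). By the RiboMinus means the exon with the highest level in Dlk1 was exon 5, of 142 bases, with 344 ± 166 and 351 ± 178 RPKM. Exon 4 lay above it in CCE1 hydrolysed (248.6 against 211.7 RPKM) and in CCE with Ribo-Zero (90.9 against 86.6).

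Tags were found almost continuously from the start of Meg3 to the end of Mirg, a stretch called the block here. They also ran across the stretches between its long genes, where the annotation has miRNA and snoRNA genes but no long gene. Of the 209 windows of 1 kb in this block, at least 1 tag was found in 100% when all CCE RiboMinus libraries were joined and in 99.5%, all but 1 window, for FH (95% exact interval from 98.3% and 97.4%), and 100% in both Ribo-Zero libraries. Single preparations covered 93.8% to 99.5% of the windows in CCE and 95.7% to 99.5% in FH. Over the 208 kb of the block, tags covered 63.9% and 63.1% of bases in the RiboMinus pools and 91.2% and 95.7% in Ribo-Zero. The longest stretch without a covered base was 742 bases in CCE and 1242 in FH, both of them places that unique 36-base tags can reach in full, and with Ribo-Zero it was 503 and 500 bases, at a place no unique 36-base tag can reach.

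The block ended sharply at both sides. In the 5 kb inside the start of Meg3 there were 954 tags in CCE and 1020 in FH, and in the 5 kb before it 3 and 5. In the 5 kb before the end of Mirg there were 402 and 254 tags, and in the 5 kb after it 9 and 4. Between 10 and 20 kb after Mirg no tag was found in any of the 4 pools. The annotated end of Rian, by contrast, was no border, with 452 and 386 tags in the last 5 kb of the gene and 275 and 278 in the next, and with Ribo-Zero more after the end (1745 and 1921) than before it (1154 and 1565). Dlk1 tags also stopped at the annotated end of the gene, with 3751 and 2351 tags in its last 5 kb and 2 and 0 in the 5 kb that follow.

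**Figure D3:**
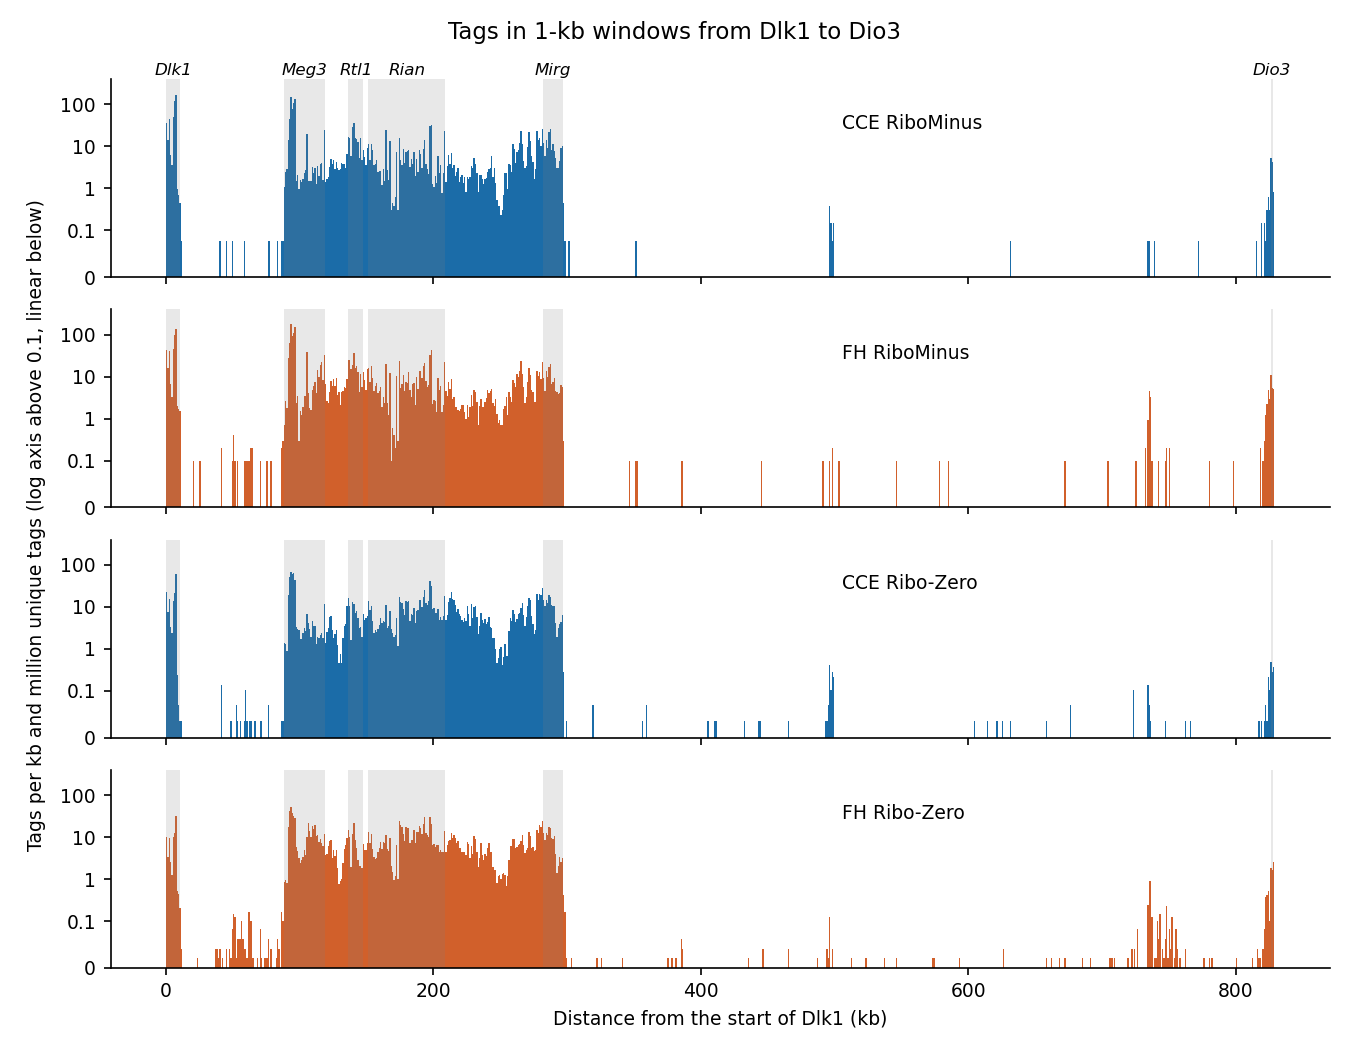
Tags per kilobase scaled to unique tags, as RPKM (log axis above 0.1, linear below), in windows of 1 kb against the distance from the start of Dlk1, for the 4 pools, with the 6 genes shaded. The block from Meg3 to Mirg has tags in at least 99.5% of its windows in each pool, and the 532 windows from Mirg to the end of Dio3 have tags in 4.32% to 15.6%.

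Within the block the level was uneven. The stretch from Meg3 to Rtl1 had 3.59 ± 0.92 RPKM in CCE (SD, n = 4) and 5.48 ± 1.22 in FH (n = 3), that from Rtl1 to Rian 5.74 ± 1.14 and 8.64 ± 2.29, and that from Rian to Mirg 4.87 ± 1.52 and 4.53 ± 1.46. None of the 11 segments, gene bodies and stretches between them, passed the test between tissues (limma), while 50.2% of all features did at an adjusted p under 0.05. Also at an unadjusted p under 0.05 there were 0 of the 11. With voom weights 2 passed, beside 7903 of 15585 genes. They were the sparse stretches Dlk1 to Meg3 (1.78 higher in FH, limma adjusted p = 0.00954) and Mirg to Dio3 (2.83, limma adjusted p = 3.09e-05), which differed by 0.038 and 0.058 on the log2(RPKM + 1) scale and also passed on that scale without a filter on low genes (limma adjusted p = 0.00824 and 0.000168). With the pairing as a block 4 passed, beside 10053 of 15585 genes. Among the 4 were Meg3 to Rtl1 (0.48 higher in FH, limma adjusted p = 0.0259), Rtl1 to Rian (0.40, limma adjusted p = 0.0483) and the whole Mirg gene (-0.38, limma adjusted p = 0.0402, but 0.046 without the block when scaled to exon tags). The fourth was the single exon of Dio3. With the hydrolysed numbers crossed at Nijmegen, 1 of these 4 passed in the blocked fit, Meg3 to Rtl1 (0.55, limma adjusted p = 0.0427). These are differences on the log2(RPKM + 1) scale.

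The stretch from Rian to Mirg, where 55 of the 114 mature miRNAs lie, was divided at Mir379. Its first 47.3 kb, which hold miR-882 alone, had 2.23 ± 0.875 RPKM in CCE and 2.53 ± 0.831 in FH. The next 25.96 kb, with the dense row, had 9.68 ± 2.78 and 8.17 ± 2.63. The ratio of the second to the first was 5.77, 3.78, 4.34 and 4.17 in the CCE preparations and 3.26, 3.10 and 3.36 in FH. All CCE ratios lay above all FH ratios, but with Ribo-Zero the ratios were 1.65 in CCE and 1.83 in FH, a smaller step in the other direction.

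Random-primed total RNA also gives tags in introns, and their density was set against that of the exons of the same gene. In Dlk1 the intron density was 2.34% to 13.2% of the exon density in CCE and 3.53% to 11.1% in FH, and in Rian it was 7.85% to 14.4% and 12.9% to 15.2%. In Mirg it was 31.9% to 37.9% in CCE and 40.4% to 52.3% in FH, without overlap. In Meg3 introns reached 92.1% to 145% of the exon density in CCE and 63.6% to 89.2% in FH, again without overlap. The share of all genes without overlap in this measure was not computed, so nothing is read from the count of genes. The exon density of Meg3 is lowered by the long and weakly covered exon 8, so its percentages also move with that exon. Its intron tags were also concentrated. The 1-kb window at 95 kb from the start of Dlk1, between exons 4 and 5, holds no annotated exon. It had 1398 RiboMinus tags in CCE and 1073 in FH. The Meg3 percentages therefore do not describe its introns in general.

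Outside the block, tags were sparse. From Mirg to the end of Dio3, 4.32% of 532 windows held a tag for CCE (95% exact interval 2.76 to 6.42) and 6.95% for FH (4.94 to 9.46) with RiboMinus, and with Ribo-Zero the shares were 7.71% and 15.6%. The intervals treat neighbouring windows as independent and measure no spread between samples. Thinned to the depth of the smallest pool the shares were 3.83%, 6.95%, 4.21% and 6.40%. The stretch from Mirg to Dio3 held 47 tags in CCE and 246 in FH. Its means were 0.0068 and 0.0478 RPKM, and the preparations did not overlap, with up to 0.0101 RPKM in CCE and from 0.0437 in FH. On the log2(RPKM + 1) scale both values are near 0, and the stretch passed with voom weights and without a filter, as given above, but in no other fit. The tags from Dlk1 to Meg3 were fewer, 11 and 28, over 77.7 kb against 529.6 kb. By density they gave means of 0.0101 RPKM in CCE and 0.0374 in FH. There too the preparations did not overlap, as in 52.4% of all features.

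The sparse tags lay in clusters. At 732 to 767 kb from the start of Dlk1, where no gene is annotated, there were 3 tags in CCE and 96 in FH with RiboMinus and 10 and 163 with Ribo-Zero, and all 6 FH libraries contributed. At 812 to 826 kb, which includes Dio3os and Mir1247, there were 22 and 127, and 19 and 89. A cluster at 487 to 504 kb had the opposite distribution, 10 and 5 tags with RiboMinus and 33 and 12 with Ribo-Zero. Dio3os, a noncoding RNA transcribed away from Dio3, had 0.523, 0.587, 0.577 and 0.232 RPKM in CCE from 1 to 3 tags each, and 3.72, 3.57 and 4.70 in FH from 9 to 26. It was higher in FH by 1.76 on the log2(RPKM + 1) scale (SE 0.17). With 8 RiboMinus tags in CCE and 52 in FH, Dio3os reached the minimum for testing only through FH, where it is high. Its difference is therefore a description, and no p-value is read from it. With Ribo-Zero the ratio was 4.00 (1.39 to 15.7, from 27 and 4 tags).

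The second comparison asked how the way of fragmenting RNA or cDNA changes the levels of these genes. Sheared cDNA gave higher levels of Dlk1 and Dio3, and hydrolysed RNA higher levels of Mirg, Rian and the stretches between the genes of the block. Between the methods, 35.3% of all features differed (limma, tissue as covariate), 14.5% higher and 20.8% lower in sheared preparations, and 4 of the 6 genes did. Dlk1 was higher in sheared preparations by 0.88 (SE 0.16, limma adjusted p = 0.00412) and Dio3 by 1.14 (SE 0.14, limma adjusted p = 0.00102). For both genes every sheared preparation of a tissue exceeded every hydrolysed one of that tissue. The share of all features that separate in this way was not computed, so this is a description. Mirg was lower (-0.49, SE 0.12, limma adjusted p = 0.0113), and so was Rian (-0.47, SE 0.13, limma adjusted p = 0.0216), whose call was lost in 5 of 7 alternatives. Meg3 gave 0.0039 (SE 0.16, limma adjusted p = 0.987) and Rtl1 -0.25 (SE 0.10, limma adjusted p = 0.0839).

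The stretches between genes followed Mirg and Rian. Meg3 to Rtl1 was lower in sheared preparations (-0.47, limma adjusted p = 0.0288), as were Rtl1 to Rian (-0.50, limma adjusted p = 0.0143) and Rian to Mirg (-0.68, limma adjusted p = 0.00608). With the replicate block the calls of Meg3 to Rtl1 (limma adjusted p = 0.101) and Rtl1 to Rian (limma adjusted p = 0.068) were lost, and Rian to Mirg passed (limma adjusted p = 0.0348). The call of Meg3 to Rtl1 was lost in 4 of 7 alternatives. Intron density was 9.33% to 13.2% of exon density in hydrolysed and 2.34% to 5.30% in sheared preparations for Dlk1, and 50.2% to 68.0% and 21.7% to 42.8% for Rtl1, as a description without a background share or a test. With the replicate block, in which 3429 of 15596 features passed, Dlk1, Dio3 and Mirg passed and Rian did not (limma adjusted p = 0.0845). In the 4 CCE preparations alone 0 of 15596 features passed, so none of the 6 could be called there (limma, 3 with an unadjusted p under 0.05, adjusted p = 0.0975 for Dio3 and 0.145 for Dlk1). Whether the tissue difference depends on fragmentation cannot be decided, because FH has 1 sheared preparation only. The estimated interaction lay between -0.19 for Rian and 0.45 for Dio3 among the 6. Between Vienna-IMP and Nijmegen 0.404% of features differed (limma, 0.0898% higher and 0.314% lower at Vienna-IMP), and 0 of the 6 genes did, also at an unadjusted p under 0.05.

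**Figure D4:**
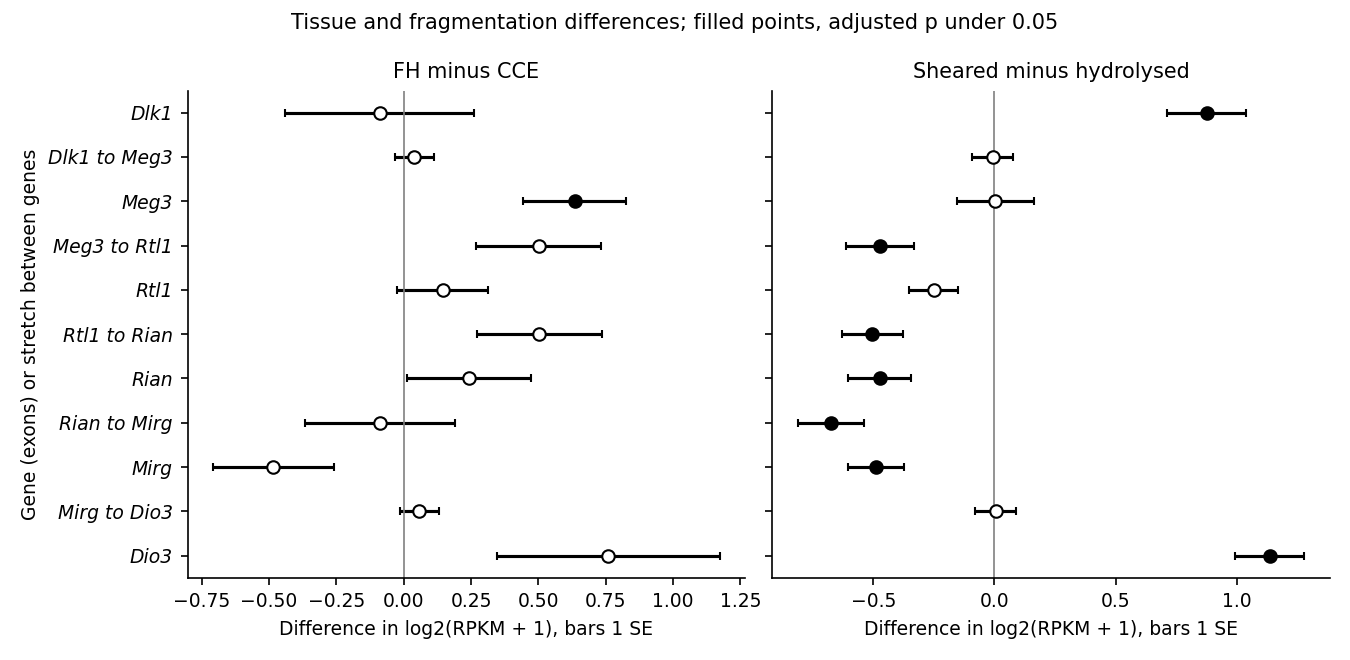
Differences on the log2(RPKM + 1) scale with bars of 1 SE for the exons of the 6 genes and the 5 stretches between them, FH minus CCE on the left and sheared minus hydrolysed on the right, with filled points for an adjusted p under 0.05 (limma). On the left Meg3 alone is filled at 0.64, and on the right Dlk1 at 0.88 and Dio3 at 1.14 lie opposite to Rian, Mirg and the 3 stretches inside the block, at -0.47 to -0.68.

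In all, 88 genes are annotated from Dlk1 to Dio3: 3 protein-coding genes, 5 long noncoding RNAs, 57 miRNAs and 23 snoRNAs. All 8 long genes had at least 20 RiboMinus tags, but only 7 miRNA and 2 snoRNA genes did. The 7 miRNA genes had Mir433 with 30 tags in CCE and 25 in FH, Mir453 with 27 and 19, Mir679 with 21 and 26, Mir1906-1 with 18 and 28, Mir134 with 15 and 11, AC121784.5 with 15 and 9, and Mir1193 with 14 and 12. These counts are similar in both tissues, and all 7 genes except Mir1906-1 and Mir679 had more tags in CCE, whose pool was the deeper. The 2 snoRNA genes, both named SNORD113, had 38 and 47 tags and 11 and 30 tags. Gm17639 had 22.5 ± 2.96 RPKM in CCE and 38.5 ± 4.57 in FH (0.75, SE 0.18), within the same exon of Meg3 described above. As that exon was chosen for its difference and its tags carry no strand, no p-value is read from Gm17639. With Ribo-Zero its ratio of FH to CCE was 1.15 (1.01 to 1.31).

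Genes outside the cluster that resembled Dlk1 or Meg3 most over the 16 libraries were found by Pearson's r of log2(RPKM + 1) among 15577 genes, as a description that includes the kit, depth and fragmentation the libraries share. For Dlk1 they were Zdhhc8 (0.989), Scap (0.981) and Ube3b (0.981), 3 genes with like means in both tissues. For Meg3 they were Nav1 (0.944), 4931428F04Rik (0.936) and Crtc1 (0.935), all higher in FH on average.

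Gene groups tied to the cluster by function are described by counts, beside the background of 23.4% higher and 26.8% lower. The tag filter summed both tissues, so a gene at 0 in either tissue was tested only through its tags in the other. Of 13 Notch ligands, receptors and targets, the pathway that Dlk1 is thought to modulate, 10 were higher in FH and 0 lower (2 lower with the replicate block or with fragmentation as covariate), with a median difference of 1.41 against -0.14 over all features. Dll4, a Notch ligand, rose from 0.106 ± 0.078 to 5.86 ± 1.19 RPKM (2.62 on the log2 scale), and Dll1, another, from 0.235 ± 0.142 to 5.99 ± 1.84 (2.48). Hes5, a target that marks neural progenitors, was 0 in CCE and 42.6 ± 28.1 RPKM in FH, so it was tested only through FH. Dll4 and Dll1, near 0 in CCE, may have entered in the same way, which was not counted. The count of higher Notch genes was thus in part set by the filter. All 7 tested neuronal and 4 of 5 progenitor markers were higher in FH too, and their part in these counts was not tested. Of the progenitor markers 2, Hes5 and Fabp7, were at 0 in CCE.

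Of the 10 thyroid hormone genes, the deiodinases, transporters, receptors and targets around Dio3, 8 had enough tags. Of these, 6 were higher and 1 lower in FH (median 1.33, or 1.29 with genes at 0 held at their bound). Among the 8, 1 gene was at 0 in CCE and had enough tags only through FH. Genes near 0 in CCE may have entered in the same way, which was not counted. Ttr, the carrier of thyroid hormone in plasma and cerebrospinal fluid, rose from 9.13 ± 1.44 to 143 ± 29.9 RPKM (3.82), and the receptor Thra from 11.3 ± 2.71 to 107 ± 16.1 (3.15). Klf9, a hormone-responsive transcription factor, fell from 13.6 ± 3.90 to 1.10 ± 0.319 (-2.77). The other deiodinases, Dio1 and Dio2, had 0 and 8 tags and were not tested.

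Of 11 tested factors known to act on imprints, 1 was higher and 7 lower in FH (median -0.72). With the other scalings 4 were lower and the median was -0.50 and -0.44. Dnmt3l, a cofactor of DNA methylation in germ cells and stem cells, was 5.69 ± 1.36 RPKM in CCE and 0 in FH. Dnmt3b, a DNA methyltransferase, fell from 6.21 ± 0.685 to 1.39 ± 0.127 (-1.59), and Aff3, which binds the imprinting control region of the cluster, rose from 4.64 ± 1.30 to 17.3 ± 3.49 (1.71). Of the 4 tested miRNA processing genes 0 were higher and 2 lower, Xpo5, the exporter of miRNA precursors (-1.20), and Drosha, the nuclease that excises them (-0.92).

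Of the 14 genes of the imprinted gene network, genes of other imprinted regions that are co-regulated in development, 6 were higher and 5 lower. The median of 0.19 was not stable, being 0.014 without the Vienna-IMP library of FH1 hydrolysed and 0.43 and 0.54 with the other scalings. Nnat (2.98), Dcn (2.59) and H19 (2.49) had the largest differences, all higher in FH. Relatives of Rtl1, derived from the same family of retrotransposons, gave 3 higher and 1 lower among 4 tested of 6 (median 1.17, or 1.14 with genes at 0 at their bound). Peg10, which like Rtl1 is imprinted and needed in placenta, fell from 334 ± 94.5 to 25.4 ± 2.75 RPKM (-3.63). Zcchc5 and Rgag1 were 0 in CCE and 4.23 ± 0.874 and 1.26 ± 0.146 in FH. These 2 of the 4 tested passed the tag filter only through FH, so the count of higher genes was in part set by that filter. Values in parentheses after a gene of these groups are limma differences, FH minus CCE, on the log2(RPKM + 1) scale.

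The marker groups were read in the same way. Of 14 primitive endoderm markers 12 were lower in FH and 0 higher, and of 5 tested pluripotency markers 4 were lower and 1 higher. All 5 skeletal muscle and 6 cartilage and bone markers were higher in FH, as were both tested of 6 pituitary markers. Of the muscle markers 3, Myh3, Myog and Myh8, were at 0 in CCE and were tested only through FH. The pituitary markers summed to 0.830 to 2.44 RPKM in CCE, so both tested ones may have entered in that way. At 0 in FH, and tested only through CCE, were 1 primitive endoderm and 2 pluripotency markers. These counts were thus in part set by the filter. Muscle markers, summed, lay between 21.7 and 32.8 RPKM in CCE and between 112 and 151 in FH. These marker levels move with each tissue difference of the 6 genes, and their part in it was not tested.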

How the data were processed

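Total RNA was depleted of ribosomal RNA and sequenced by the authors, who aligned 36-base or 51-base tags to mm9 with Bowtie (version not given in the sources used here), without splice junctions, and deposited the uniquely mapped tags. The deposited files list 1 tag in each line, with its position, strand and a score that is the same constant in every line, and the score was not used. Of 24 samples listed, 16 with files were analysed here and 8 were not analysed here. The deposited positions hold no gene table, so tags were counted by midpoint in merged GENCODE M1 exons and in 1000-base windows, and scaled to RPKM. Because the values are thus normalised from tag lists, log2(RPKM + 1) was fitted with limma 3.58.1 (R 4.3.3) with a trended variance, for features with at least 20 RiboMinus tags, with Benjamini-Hochberg adjustment over 15596 features and a threshold of 0.05. Exact permutation tests enumerated all assignments of preparations to the tissues, and exact binomial intervals used scipy 1.17.1.

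The unit was the cDNA preparation, with the tags of both locations summed. CCE preparations are technical replicates, separate animals or cultures are not stated for the rest, and p-values thus measure the spread between preparations, which may be technical. Between 17.7% and 29.4% of RiboMinus tags repeated a position. Same-numbered preparations deviated together from their tissue means (r = 0.441, 0.546 and 0.531), where the numbers are those of the study's account of its preparations. These pairs also share the fragmentation, and pairs of unlike number were not compared, so a pairing by number is not shown. In simulated counts for the FH against CCE design with 15585 genes, the fit found 179 of the 200 genes that had been given a 4-fold difference, and also called 10 without one. The counts were drawn independently, without a fragmentation effect or shared RNA, so they do not give the error rate in these data. Intervals are 95% exact binomial. Those of tag ratios cover counting error only. Those of window shares treat the neighbouring windows of a pool as independent draws, which they are not. They measure no spread between samples.

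All 6 genes were named. Also named were every annotated gene of the interval with at least 20 RiboMinus tags, the 3 genes most like Dlk1 and Meg3, and up to 3 genes of each functional list with the largest difference. Genes of the marker lists are described by counts, except Pou5f1, and the exons of Meg3 and Dlk1, the division at Mir379 and the clusters of sparse tags were picked after their values were seen. The genes and lists were chosen with earlier results of these data known.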

Additional observations from a re-analysis of the deposited data

Results flagged for a closer look

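Of 36 groups of libraries examined, 1 held a library that stood apart from the rest. In the stretch from Mirg to Dio3 the FH1 sheared library of Nijmegen had 0.0656 RPKM, from 32 tags, against 0.0388 to 0.0487 in the other 5 FH libraries. Its gap to the nearest library was 0.632 of the whole range, just above Dixon's limit for 6 libraries, and chance alone gives about 1 such group in 20.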

How the results depend on the processing

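Of the 6 genes, 1 passed between tissues in the fit reported first, 3 with the replicate block, with fragmentation as covariate or in hydrolysed preparations only, 0 with the Nijmegen libraries only or without the Vienna-IMP library of FH1 hydrolysed, and 0 to 1 when single preparations were left out. Of 15585 genes 7822 passed first, 10053 with the block, 10458 with the covariate, 10427 in hydrolysed preparations only, 5480 with Nijmegen only, 7327 without that library, 7903 with voom weights, 6520 to 7888 without single preparations, and 7038 of 26225 without a filter. Of the 11 segments, 0 passed first, 4 with the block, the covariate or hydrolysed preparations, 3 with either other scaling, 2 without a filter or with voom weights, and 0 to 1 without single preparations. Over all genes the split of 3647 higher and 4175 lower became 4207 and 3059 with median-of-ratios scaling and 4524 and 2592 with exon-tag scaling, and the median of all genes moved from -0.14 to 0.03 and 0.12. Of 97 list genes 4 (Dicer1, Dnmt3a, Notch2 and Slc1a3) change sign with scaling, none of them called. Between fragmentation methods 4 of 6 genes passed, and 0 in the CCE preparations only, where 0 of 15596 features did.

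Signs that turned belong to small differences. Dlk1 became 0.14 (median-of-ratios), 0.25 (exon-tag scaling), 0.057 (covariate), 0.15 (block) and 0.027 (hydrolysed only), and lay between -0.40 and 0.15 without single preparations. The whole Dlk1 gene gave 0.15, 0.26, 0.048, 0.13 and 0.015 in these settings, 0.079 without exons, and -0.36 to 0.13 without single preparations. Rtl1 was -0.073 without the Vienna-IMP library of FH1 hydrolysed. The whole Rtl1 gene gave -0.042 with repeated positions counted once, -0.0089 with the covariate, -0.025 with the block, -0.19 without exons, -0.067 without that library, and -0.025 to 0.23 without single preparations. Rian to Mirg gave 0.11 and 0.21 with the 2 scalings and -0.25 to 0.16 without single preparations, and the whole Mirg gene 0.046 with exon-tag scaling. Between fragmentation methods Meg3 gave -0.17 in CCE only and -0.059 with exon-tag scaling, and the whole Meg3 gene 0.12 with repeated positions counted once.

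With at least 5 tags asked for, windows from Meg3 to Mirg held them in 97.6% (CCE RiboMinus), and windows from Mirg to Dio3 in 1.13% and 1.88% (RiboMinus, CCE and FH) and 1.69% and 3.20% (Ribo-Zero). With 500-base windows the latter were 4.51% (FH RiboMinus), 4.89% and 9.87% (Ribo-Zero), and thinned Ribo-Zero gave 4.21% and 6.40%. Without single preparations they were 3.38% to 4.14% in CCE and 4.51% to 6.77% in FH, and from Meg3 to Mirg 99.0% to 100% and 99.0% to 99.5%. The causes were not tested. Low tag numbers limit Dio3, Dio3os and the sparse stretches most, and 4 against 3 preparations cannot give an exact p under 0.0571. Crossing the numbers of the hydrolysed preparations at Nijmegen, an alternative chosen after seeing the data as was leaving out a single library, called 7368 genes against 7822, with Meg3 as the 1 of the 6 (0.69, limma adjusted p = 0.0392). With the replicate block on the crossed numbers, also chosen after seeing the data, 9067 genes passed, 2 of the 6 genes (Meg3 and Mirg) and 1 of the 11 segments, Dlk1 became 0.16, the whole Dlk1 gene 0.14 and the whole Rtl1 gene -0.046.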
